A study of Mus musculus with 12 samples.

Results

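Collagen chains are the polypeptides that wind into the collagen helix, and they were followed here in the lungs of mice that breathed high oxygen or room air. The members were the transcript clusters of the array whose only platform gene symbol is Col followed by a digit and a chain number, with the cluster of highest mean kept for each gene. This gave 44 chains, from 46 clusters, out of 19938 genes and 35556 clusters in all. They comprised 11 fibrillar chains, 8 basement membrane chains (the type IV chains, Col15a1 and Col18a1) and 25 other chains. All 44 symbols were also the RefSeq symbols of the same gene IDs.

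The lungs came from wild-type C57BL/6J mice aged 8 to 10 wk, male or female, which had either been exposed to hyperoxia (FiO2 over 0.95) for 48 h or been kept in room air. Whole-lung RNA was hybridised to 12 Affymetrix Mouse Gene ST arrays, with 3 arrays for each of the 4 combinations of sex and treatment. Each array held pooled RNA of 4 mice, so the spread between arrays is one between pools, and the p-values measure only that spread. The deposited values are log2 intensities after Robust Multichip Average (RMA) normalisation, and differences are given below on that log2 scale as hyperoxia minus room air. In whole lung, fewer cells of a type and less RNA per cell cannot be told apart. Array medians lay between 8.121 and 8.203 and correlations between arrays between 0.969 and 0.996. The mean log2 value of 9 alveolar type 2 markers was 12.26 to 12.87 over the 12 arrays, so lung epithelial transcripts were present throughout, while the means of 18 squamous epithelium genes (7.25 to 9.97) and 12 skeletal muscle genes (7.80 to 10.51) varied between pools within groups. The 3 arrays with the highest squamous means were female hyperoxia replicate 1 and female room air replicates 1 and 3.

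Every collagen chain carries stretches in which glycine recurs regularly, which lets the chains coil around each other in groups. Fibrillar collagens, above all types I and III, form the rope-like fibres that give the lung interstitium its tensile strength. Type IV collagen forms the flat network of basement membranes, the sheets under alveolar epithelium and capillary endothelium. Col4a1 and Col4a2 encode its ubiquitous chains, and Col4a3, Col4a4 and Col4a5 encode chains found in specialised basement membranes such as those of the glomerulus and the alveolus. Col15a1 and Col18a1 encode collagens at the edge of basement membranes, and a fragment of the Col18a1 protein is endostatin. Other chains form beaded filaments (type VI), the hexagonal network of type VIII made by vascular cells, or molecules that sit on fibril surfaces (Col12a1, Col14a1).

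The start regions of the chains the results turn on are shown because 2 of them are joined in the genome. In the RefSeq promoter table (mouse build GRCm38.p6) Col4a1 and Col4a2 are transcribed away from each other on chromosome 8, and their starts overlap, so that 22 bases at chr8:11312805-11312826 belong to both first exons. These bases are printed on the strand of Col4a2. The windows of Col8a1, of both Col18a1 starts and, as an uncalled fibrillar chain, of Col1a2 are printed as the 250 bases before the start, each on the strand of its gene. Col8a1 lies at chr16:57754738-57754987 (minus strand), the downstream Col18a1 start at chr10:77113706-77113955 (minus strand), the upstream one at chr10:77166531-77166780 (minus strand) and Col1a2 at chr6:4505368-4505617 (plus strand). Capitals mark a match, on either strand, to any of 5 motifs. These were GGGCGG (the GC box), CCAAT (the CCAAT box), TATAAA (the TATA box), TGACTCA (the AP-1 site) and TGACNNNGC (the core of the antioxidant response element, where N is any base).
Col4a1 and Col4a2 overlap: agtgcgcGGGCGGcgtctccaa
Col8a1: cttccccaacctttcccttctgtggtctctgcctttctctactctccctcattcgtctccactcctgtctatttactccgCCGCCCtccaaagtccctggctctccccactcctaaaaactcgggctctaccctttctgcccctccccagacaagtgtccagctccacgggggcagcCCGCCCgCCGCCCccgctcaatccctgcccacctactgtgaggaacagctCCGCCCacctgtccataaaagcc
Col18a1 downstream start: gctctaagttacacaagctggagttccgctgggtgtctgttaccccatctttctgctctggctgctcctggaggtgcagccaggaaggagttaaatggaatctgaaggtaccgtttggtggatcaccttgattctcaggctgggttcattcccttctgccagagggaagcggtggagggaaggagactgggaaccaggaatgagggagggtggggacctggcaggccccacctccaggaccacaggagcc
Col18a1 upstream start: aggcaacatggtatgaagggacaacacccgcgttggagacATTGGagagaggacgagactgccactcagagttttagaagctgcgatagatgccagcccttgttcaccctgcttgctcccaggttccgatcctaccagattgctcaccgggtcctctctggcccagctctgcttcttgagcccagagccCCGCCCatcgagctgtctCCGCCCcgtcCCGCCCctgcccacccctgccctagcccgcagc
Col1a2: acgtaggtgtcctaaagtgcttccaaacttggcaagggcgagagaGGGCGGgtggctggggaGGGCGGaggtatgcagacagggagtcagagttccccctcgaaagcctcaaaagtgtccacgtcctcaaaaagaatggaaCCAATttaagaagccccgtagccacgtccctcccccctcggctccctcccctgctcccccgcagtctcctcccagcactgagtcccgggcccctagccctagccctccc

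A match describes letters only, and no factor binding was measured. A 300-base window (250 before and 50 after the start) was listed for 35 of the 44 chains, 3 of them with 2 windows, and for 4 of the 5 chains called below. GGGCGG occurred in 23 of the 38 collagen windows (60.5%) and in 35.7% of all 32851 windows in the table. It occurred in 4 of 5 windows of called chains and in 19 of 33 windows of uncalled chains. The window of Col8a1 held 4 matches to GGGCGG, that of Col4a2 held 3 and that of Col4a1 held 1. Among uncalled chains, the window of Col1a2 held 2 and that of Col8a2 held 4. The upstream Col18a1 window held 3 matches and the downstream window held none. CCAAT was found in 34.2% of collagen windows against 37.4% of all windows, TATAAA in 13.2% against 13.6%, TGACTCA in 2.63% against 5.2%, and TGACNNNGC in 18.4% against 12.4%. Collagen windows had a median GC content of 59.9%, and all windows 52.7%.

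The study asked how lung transcripts respond to hyperoxia in each sex. After 48 h, 5 collagen chains were called higher in both females and males, and none of the 44 was called lower. They were Col4a1, Col4a2 and Col18a1 among the basement membrane chains, and Col8a1 and Col12a1 among the other chains. No fibrillar chain was called in either sex. A chain counted as called when its Benjamini-Hochberg adjusted p in limma, over all clusters, was under 0.05 and its fold change was at least 1.4 (0.485 on the log2 scale). The 5 chains are 11.4% of the 44, beside 4.75% of all genes called higher in females and 5.32% in males. For genes called lower the background was 3.67% in females and 4.11% in males. At any fold, limma gave an unadjusted p under 0.05 with a negative difference for 5 chains in females and 2 in males. These were 11.4% and 4.55% of the 44, beside 17.1% of all genes in each sex, a share that includes the genes called lower.

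**Figure D1:**
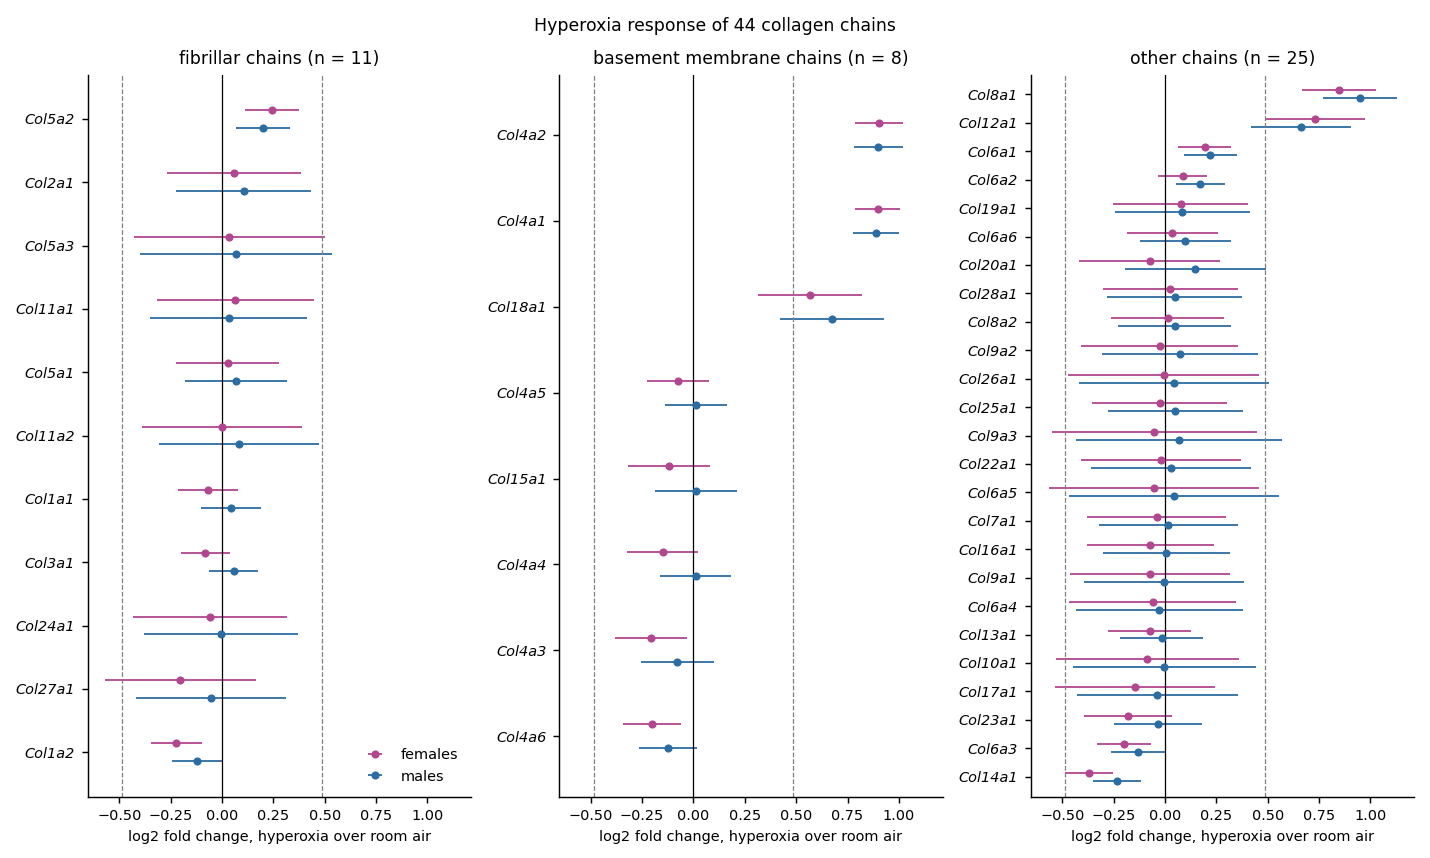
Log2 fold change of each of the 44 collagen chains, hyperoxia over room air, in females and males, with 95% confidence intervals from limma (3 arrays per group), split into fibrillar, basement membrane and other chains. Dashed lines mark a fold of 1.4 in either direction. Col4a1, Col4a2, Col18a1, Col8a1 and Col12a1 lie above the upper line in both sexes, and no point lies below the lower line.

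Among the basement membrane chains, Col4a1 had the smallest spread between pools of all 44 (pooled SD 0.0384). In room air its log2 values were 10.19, 10.21 and 10.20 in females and 10.17, 10.28 and 10.21 in males. In hyperoxia they were 11.08, 11.10 and 11.12 in females and 11.07, 11.09 and 11.16 in males. Every hyperoxia array stood above every room air array, with no overlap. The difference was 0.90 in females (SE 0.05, adjusted p = 2.64e-06), a fold of 1.86, and 0.89 in males (adjusted p = 2.65e-06), a fold of 1.85. Col4a2, the partner with which Col4a1 assembles, gave 10.12, 10.21 and 10.20 in female room air and 11.03, 11.13 and 11.08 in female hyperoxia. In males it gave 10.20, 10.30 and 10.26 in room air and 11.12, 11.14 and 11.20 in hyperoxia. The groups again did not overlap, and the differences of 0.90 in females (adjusted p = 3.86e-06) and 0.90 in males (adjusted p = 3.28e-06) matched those of Col4a1 to within their SE of 0.05.

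Col18a1 varied more between pools. Its values were 8.48, 8.64 and 8.39 in female room air and 8.87, 9.29 and 9.06 in female hyperoxia. In males they were 8.64, 8.45 and 8.59 in room air and 9.08, 9.31 and 9.30 in hyperoxia. All hyperoxia arrays lay above the room air arrays of their sex, although in females the gap between the groups was narrower than the spread within hyperoxia. The difference was 0.57 (SE 0.11, adjusted p = 0.00574) in females and 0.67 (adjusted p = 0.00189) in males. The female call was lost without female hyperoxia replicate 2 (0.46, adjusted p = 0.0176, under the fold limit), and without the 3 arrays of highest squamous means, which leaves 1 female room air array (0.53, adjusted p = 0.0981).

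The other 5 basement membrane chains were not called. Col4a3 was measured at 9.77, 9.86 and 9.83 in female room air and at 9.45, 9.65 and 9.73 in female hyperoxia, a difference of -0.21 that missed the test (adjusted p = 0.114). In males its values were 9.86, 9.99 and 9.87 in room air and 9.90, 9.74 and 9.84 in hyperoxia, where the groups overlap, with a difference of -0.08. Col4a4, which assembles with Col4a3, differed by -0.15 in females and 0.01 in males. The X-linked pair gave -0.07 and 0.01 for Col4a5, and -0.20 and -0.12 for Col4a6, in females and males in that order. In the same order Col15a1, a relative of Col18a1, gave -0.12 and 0.01. For all 5 chains in both sexes the 95% interval of the difference lay inside the fold limit of 1.4 in either direction. Col4a6 had a mean value of 7.95, under every array median. Low values compress differences, so its interval is a weak limit on the change in RNA. The median of the class was -0.10 in females and 0.01 in males, close to the -0.02 and 0.01 over all genes.

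**Figure D2:**
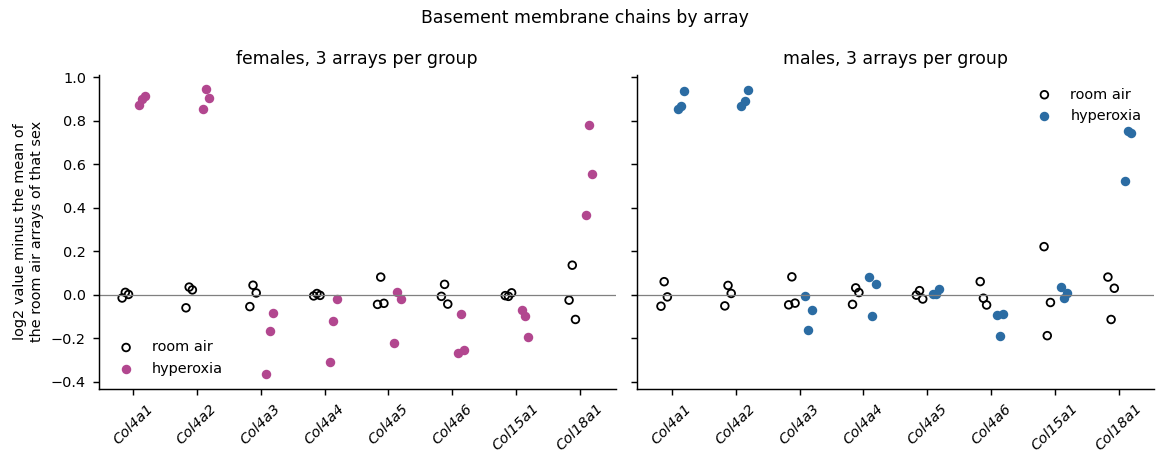
The 8 basement membrane chains by array, as the log2 value minus the mean of the 3 room air arrays of the same sex (females left, males right). Open points are room air arrays and filled points hyperoxia arrays. Col4a1, Col4a2 and Col18a1 are raised in every hyperoxia array, while Col4a3 to Col4a6 and Col15a1 lie around or below 0.

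Col4a5 and Col4a6, like Col4a1 and Col4a2, are neighbours transcribed away from each other, on the X chromosome, with 1342 bases between their starts in RefSeq. Unlike Col4a1 and Col4a2, neither was called. Col4a4, for which a window was listed, held none of the 5 motifs. Col4a5 held 1 GGGCGG match and 1 CCAAT match, and Col4a6 held 1 GGGCGG match.

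Col8a1, a short-chain collagen of vessel walls, had the largest difference of any chain in males. It was measured at 8.70, 8.77 and 8.73 in female room air and at 9.44, 9.62 and 9.68 in female hyperoxia. Male values were 8.80, 8.81 and 8.999 in room air and 9.73, 9.90 and 9.82 in hyperoxia. The groups were well separated in each sex. The difference was 0.85 in females (SE 0.08, adjusted p = 5.71e-05) and 0.95 in males (adjusted p = 2.42e-05). Its partner chain Col8a2 was not called, at 0.01 in females and 0.05 in males.

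Col12a1, which decorates fibril surfaces, was measured at 9.32, 9.48 and 9.58 in female room air and at 10.02, 10.22 and 10.33 in female hyperoxia. In males the values were 9.45, 9.81 and 9.56 in room air and 10.25, 10.23 and 10.32 in hyperoxia. No hyperoxia array overlapped a room air array, and the differences were 0.73 in females (SE 0.11, adjusted p = 0.000991) and 0.66 in males (adjusted p = 0.00162). Col14a1, of the same fibril-associated family, gave differences of the opposite sign. It read 10.00, 10.04 and 10.13 in female room air and 9.71, 9.68 and 9.68 in female hyperoxia, and 9.89, 9.83 and 9.81 against 9.64, 9.58 and 9.61 in males. All its hyperoxia arrays were below all room air arrays, with differences of -0.37 (SE 0.05, adjusted p = 0.000715) in females and -0.23 (adjusted p = 0.00945) in males, both short of the fold limit.

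**Figure D3:**
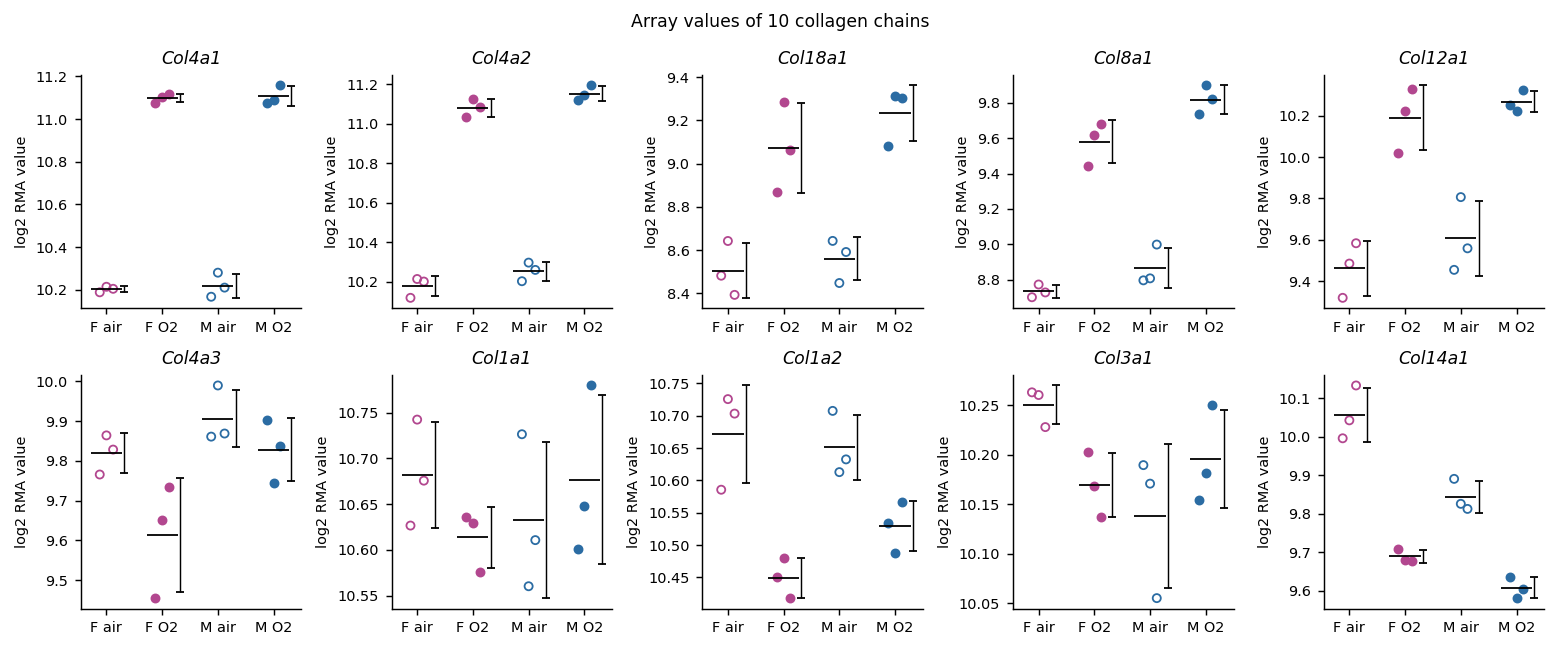
Log2 RMA values of 10 collagen chains in each of the 12 arrays, by group (F, females; M, males; air, room air; O2, hyperoxia), with the mean as a line and the SD as a bar (n = 3). Vertical axes differ between panels. The upper row shows the 5 chains called in both sexes, whose hyperoxia arrays all lie above the room air arrays of their sex, and the lower row shows Col4a3, Col1a1, Col1a2, Col3a1 and Col14a1, which were not called.

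None of the fibrillar chains was called. Col1a1, the main chain of type I collagen, read 10.63, 10.74 and 10.68 in female room air and 10.64, 10.63 and 10.58 in female hyperoxia. In males it read 10.73, 10.56 and 10.61 in room air and 10.60, 10.65 and 10.78 in hyperoxia. The groups overlapped in both sexes, with differences of -0.07 (95% interval -0.21 to 0.08) and 0.04 (-0.10 to 0.19). Col1a2, the other type I chain, read 10.59, 10.73 and 10.70 in female room air and 10.45, 10.48 and 10.42 in female hyperoxia, which did not overlap. Male arrays read 10.71, 10.61 and 10.63 in room air and 10.53, 10.49 and 10.57 in hyperoxia, also without overlap. The difference of Col1a2 was -0.22 in females (adjusted p = 0.0192) and -0.12 in males (adjusted p = 0.193), both inside the fold limit.

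Col3a1, the type III chain, differed by -0.08 in females and 0.06 in males. Of the type V chains, which help to set fibril diameter, Col5a2 differed by 0.24 in females (adjusted p = 0.0153) and 0.20 in males (adjusted p = 0.0376), with no overlap of the arrays, again short of the fold limit. Col5a1 gave 0.03 and 0.07 and Col5a3 gave 0.04 and 0.07. Over the 11 fibrillar chains the differences ran from -0.22 to 0.24 in females and from -0.12 to 0.20 in males, with medians of -0.0006 and 0.06. The male median was -0.11 without male room air replicate 2. The 95% interval lay inside the fold limit for 9 of the 11 in females and 10 of the 11 in males.

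Type VI collagen, whose chains form beaded filaments around cells, showed small differences with opposite signs. Col6a1 differed by 0.19 in females (adjusted p = 0.046) and 0.22 in males (adjusted p = 0.0228), and Col6a2 by 0.09 in females and 0.17 in males (adjusted p = 0.0489). Col6a3 differed by -0.20 in females (adjusted p = 0.0392) and -0.13 in males. None reached the fold limit. Col6a4, Col6a5 and Col6a6 lay between -0.06 and 0.10 in both sexes. The median over all 25 other chains was -0.04 in females and 0.05 in males.

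Without the fold limit, 7 of the 44 chains were higher in females and 3 lower (15.9% and 6.82%, where 12.1% and 11.4% of all genes were), and 8 were higher and 1 lower in males (18.2% and 2.27%, where 13.3% and 12.1% of all genes were). The arrays did not overlap between treatments for 8 chains higher and 8 lower in females, 18.2% each, beside 18.1% and 19.4% of all genes. In males this held for 8 chains higher (18.2%) and 3 lower (6.82%), beside 20.3% and 19.8% of all genes. By this looser count the number of chains above was near the background. The uncalled chains ranged from -0.37 to 0.24 in females and from -0.23 to 0.22 in males.

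The response of the chains was compared between the sexes by the interaction, the male minus the female difference. No chain was called, no chain had an unadjusted p under 0.05 in limma, where 1.31% of all genes did, and 0 clusters of the whole array were called (0%). The interaction was -0.01 for Col4a1 (95% interval -0.17 to 0.15) and -0.003 for Col4a2 (-0.17 to 0.16). It was wider for Col18a1 (0.11, interval -0.25 to 0.47), Col8a1 (0.10, -0.15 to 0.36) and Col12a1 (-0.07, -0.41 to 0.28), so differences of these sizes between the sexes cannot be told from the spread. Males and females did not differ by the same threshold for any chain in room air or in hyperoxia, where 0.0201% and 0.0251% of all genes did. In room air 1 chain, 2.27% of the 44, had an unadjusted p under 0.05, where 2.26% of all genes did. It was Col14a1, at -0.21 for males minus females (limma adjusted p = 1.00). In hyperoxia 3 chains did, 6.82% of the 44 beside 3.28% of all genes. They were Col8a1, Col4a3 and Col4a4, all higher in males by 0.20 to 0.24 (limma adjusted p = 0.945 or above).

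The precision was not equal over the chains. Pooled SDs within groups ran from 0.0384 for Col4a1 to 0.312 for Col6a5, with a median of 0.154. Across the 44 chains the SD was larger where the mean log2 value was lower (Spearman rho -0.769, a description over chains that share the same arrays). The 22 chains of largest SD had mean values of 7.14 to 8.77. No detection calls were used, and near background an array compresses differences, so for these chains a small difference is a weak limit on the change in RNA.

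Many chains also moved together by pool. Female room air replicate 2 was the highest array of its group for 36 of the 44 chains (81.8%), and for 49.2% of all genes. Male room air replicate 1 was the highest of its group for 33 chains (75% beside 42.9% of all genes), and female hyperoxia replicate 2 for 32 (72.7% beside 53.6%). Male hyperoxia replicate 2 was the lowest of its group for 35 chains (79.5% beside 48.9% of all genes), male room air replicate 2 for 31 (70.5% beside 47.5%) and female hyperoxia replicate 1 for 30 (68.2% beside 48.9%). The farthest values from a group mean were Col6a5 in male room air replicate 2, at -0.51, and Col26a1 in female hyperoxia replicate 2, at 0.46. Col17a1, a transmembrane collagen of epithelial hemidesmosomes, followed another order and was highest in female room air replicate 1 (8.596) and female hyperoxia replicate 1 (8.49), both among the 3 arrays of highest squamous means. The part of pool makeup or RNA quality in this spread was not tested.

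**Figure D4:**
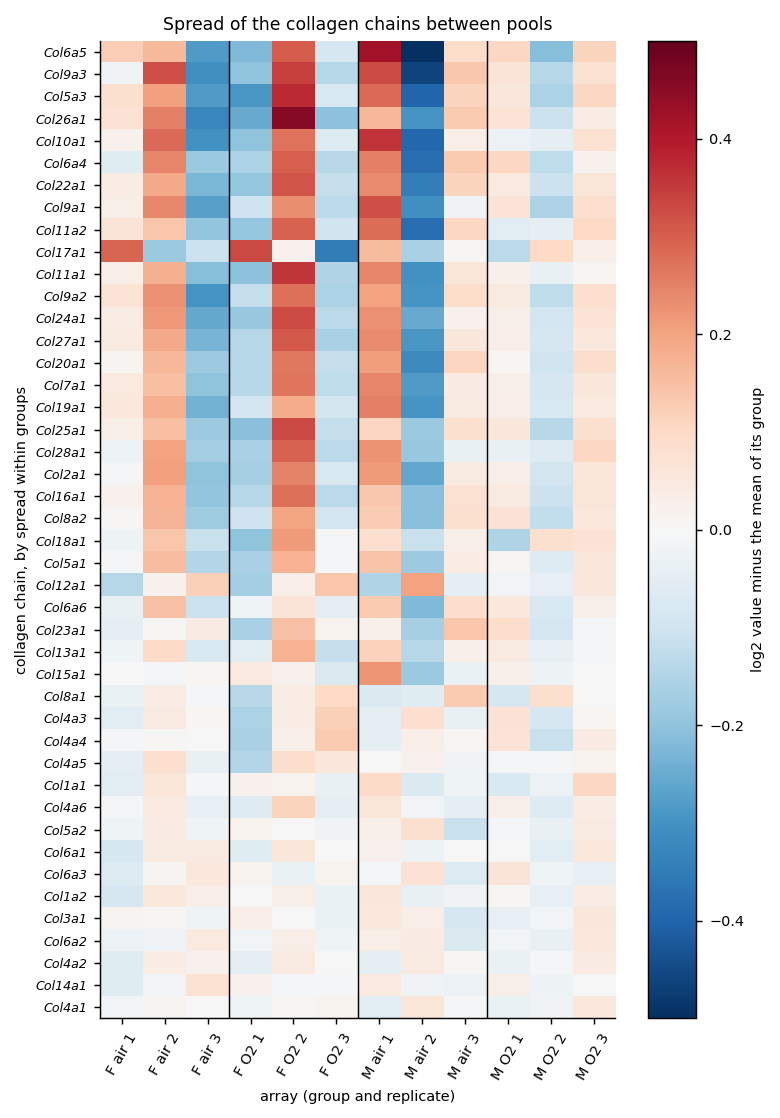
Deviation of each of the 44 collagen chains (rows, ordered by pooled SD, largest on top) from the mean of its group in each of the 12 arrays (columns, F and M for females and males, air for room air, O2 for hyperoxia), in log2 units. Chains in the upper part share their colour within a column, for example male room air replicate 2, and the lowest rows, with Col4a1 at the bottom, are near 0 throughout.

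The proteins that fold, cut, link, bind and degrade collagen were taken from lists of partner genes. Here and below, genes that rose or fell are those called higher or lower. Among all genes, 4.75% were called higher and 3.67% lower in females, and 5.32% and 4.11% in males. Of 20 measured genes for synthesis and folding, none rose and 2 fell in both sexes. Colgalt2, which adds galactose to hydroxylysine of collagen, fell in females (-1.25, adjusted p = 0.000137) and in males (-1.26, adjusted p = 0.000112). Its values were 8.68, 8.70 and 8.81 in female room air and 7.37, 7.47 and 7.60 in female hyperoxia. Plod2, the lysyl hydroxylase of the telopeptides, fell in females (-0.54, adjusted p = 0.0161) and in males (-0.52, adjusted p = 0.018). Its call was lost in females without room air replicate 3 (-0.42, adjusted p = 0.0578) or hyperoxia replicate 2 (-0.47, adjusted p = 0.0557), and in males without any 1 array other than room air replicate 1 (adjusted p 0.054 to 0.0689). Its male call was also lost with the replicate number as a block and each sex fitted alone (adjusted p = 0.0666). The collagen chaperone Serpinh1 gave -0.05 and -0.11, and the prolyl hydroxylase subunit P4ha1 gave 0.04 and 0.01.

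Of 12 genes for propeptide processing and cross-linking, 3 rose and 2 fell in both sexes. Lox, the lysyl oxidase that starts covalent cross-links, was measured at 10.19, 10.23 and 10.37 in female room air and at 11.30, 11.35 and 11.32 in female hyperoxia. In males it was 10.01, 10.22 and 10.20 against 11.29, 11.31 and 11.43. With no overlap, Lox rose by 1.06 in females (adjusted p = 9.12e-06) and by 1.2001 in males (adjusted p = 3.86e-06). Tgm2, a transglutaminase that links matrix proteins, rose by 0.84 and 0.76, and Loxl4, a relative of Lox, by 0.63 and 0.71, in females and males in that order. Pcolce2, an enhancer of procollagen C-proteinase, fell in females (-0.60) and males (-0.67), and so did Tll1, a proteinase of that group (-0.51 and -0.59). Tll1 lost its female call without female room air replicate 3, where it fell just under the fold limit (-0.485, adjusted p = 0.0155).

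Of 18 fibril-binding proteins none rose and 2 fell in both sexes. Prelp fell in females (-0.50, adjusted p = 0.000235) and in males (-0.56, adjusted p = 0.000101), and Ogn fell in females (-0.50, adjusted p = 0.02) and in males (-0.53, adjusted p = 0.0139). Both are small leucine-rich repeat proteins of the matrix. In females their differences lay near the fold limit, and 3 of the 6 arrays, room air replicate 2, hyperoxia replicate 1 and hyperoxia replicate 2, each ended the call of Prelp when left out (-0.47, -0.46 and -0.48). Ogn lost its female call without room air replicate 2 or 3 or hyperoxia replicate 2 (-0.51, -0.44 and -0.35), and its male call without room air replicate 2 or 3 or hyperoxia replicate 2 (-0.45, -0.51 and -0.51) or under that block (adjusted p = 0.0615). None of the 8 collagen receptors, which include integrin alpha chains and Ddr1 and Ddr2, was called in either sex, with differences from -0.34 to 0.45.

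By count, the list for collagen breakdown and uptake held the most called genes of the 6 lists, but the lists differ in length. The shorter cross-linking list, of 12 genes, had 3 called higher and 2 lower in each sex. Of the 19 breakdown and uptake genes, 7 rose in each sex, and Mmp9, a gelatinase, fell in males (-0.98, adjusted p = 0.000521). In females Mmp9 differed by -0.29, and the difference between the sexes did not pass the interaction test (limma adjusted p = 1.00). Timp1, an inhibitor of matrix metalloproteinases, rose by 2.38 in females (adjusted p = 1.3e-05) and by 2.48 in males (adjusted p = 8.52e-06). Plaur and Plau, the urokinase receptor and its ligand, rose by 1.39 and 1.204 in females and by 1.49 and 1.52 in males. Ctsk, a cysteine proteinase that cleaves helical collagen, rose by 1.41 in females and by 1.31 in males. Of 21 regulators of collagen genes 2 rose, Tgfb2, a TGF-beta ligand, by 0.62 and 0.72, and the transcription factor Cebpb by 0.57 and 0.65, in females and males in that order.

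**Figure D5:**
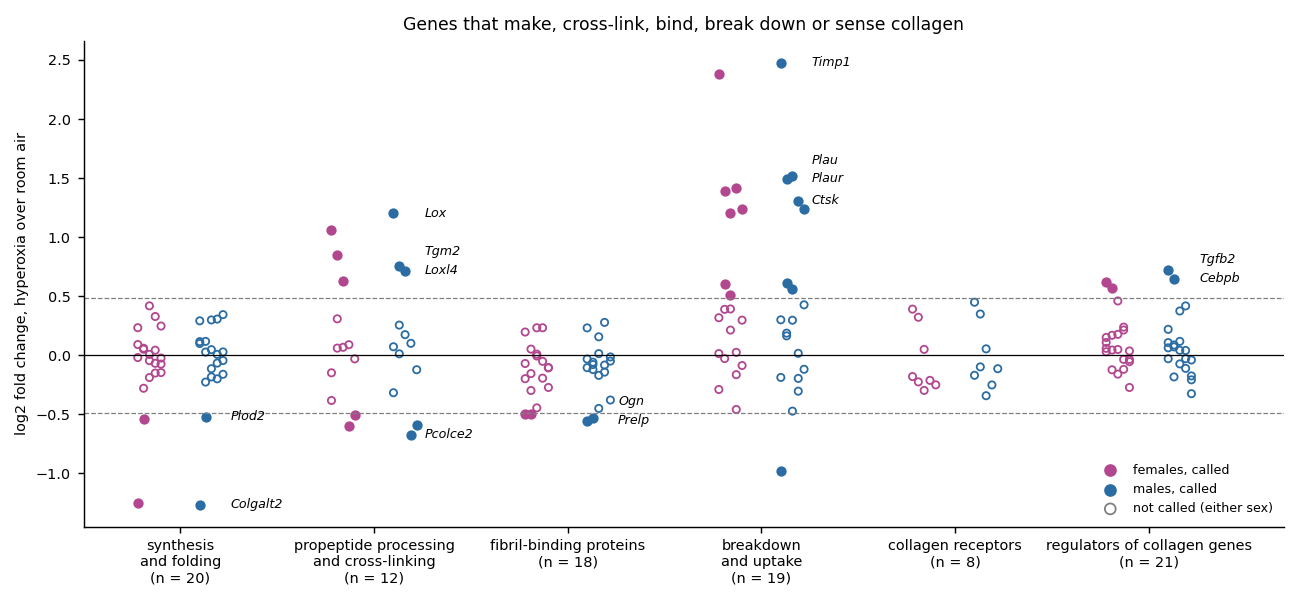
Log2 fold change, hyperoxia over room air, of each measured gene on 6 lists of collagen partners, for females and males (3 arrays per group). Filled points were called (adjusted p under 0.05 and a fold of at least 1.4), open points were not, and dashed lines mark the fold limit. Timp1 lies highest and Colgalt2 lowest in both sexes.

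Markers of the cells that could carry the chains are given beside them. Of 16 endothelial genes, 6 fell in each sex and none rose, and their mean was 11.71 to 11.91 on room air arrays and 11.12 to 11.23 on hyperoxia arrays. Of 16 fibroblast genes none rose, and 2 fell in females and 1 in males. Their mean was 10.87 to 11.06 on room air arrays and 10.71 to 10.84 on hyperoxia arrays. Of 10 smooth muscle genes, 2 rose in females and 3 in males, and their mean was 9.93 to 10.37 in room air and 10.22 to 10.49 in hyperoxia. Tagln, an actin-binding protein, had the largest differences of the 10 (0.93 and 1.16). Mustn1 (-0.40 and -0.30), Hhip (-0.34 and -0.48) and Synpo2 (-0.29 and -0.20) had negative differences, short of the fold limit. Of 9 alveolar type 2 genes 6 fell in females and 3 in males, with medians of -0.50 and -0.42, and none was called in the interaction. Of 9 alveolar type 1 genes 2 rose and 1 fell in each sex. Of 5 club cell genes none rose and 1 fell in each sex, the secretoglobin Scgb3a2 (-0.59 and -0.73). Its female call was lost without room air replicate 3 (-0.52, adjusted p = 0.0555) or hyperoxia replicate 2 (-0.45, adjusted p = 0.0386). The mean of the 5 was 12.70 to 12.87 on room air arrays and 12.37 to 12.59 on hyperoxia arrays. Of 15 cartilage genes 1 rose and 2 fell in each sex, and of 7 mesothelial genes 1 rose. None of the squamous or skeletal muscle genes was called. Col4a1, Col4a2 and Col18a1 rose in the arrays in which the mean of the endothelial markers was lower. The endothelial genes differed unequally, from -2.40 to 0.02 in females (median -0.30) and from -2.53 to 0.11 in males (median -0.34). The part of cell makeup in the collagen differences was not tested.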

How the data were processed

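Per the labels and methods, lung RNA was pooled from 4 mice per array and labelled with the Ambion and Affymetrix whole-transcript kits, and the authors deposited log2 values per transcript cluster after RMA, that is, background correction, quantile normalisation and summary of the probes. For RMA's version, for scan dates and for slides, nothing was given in the sources used here. Quantile normalisation removes shifts shared by all genes, and values near background compress fold changes. Precision is limited by the number of arrays.

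The log2 values were used as deposited, with no filter, for 35556 clusters. The platform table gave 21789 clusters 1 symbol, 1621 several and left 12146 unlisted, and clusters with 1 symbol only were named. A model with 1 mean per group was fitted in limma (version 3.58.1, under R 4.3.3) with moderated variances. Within each sex hyperoxia was set against room air, these differences were set against each other, and the sexes were compared within each treatment. A call required a Benjamini-Hochberg adjusted p under 0.05 over all clusters and a fold of at least 1.4. The fit was tested on simulated data with independent noise for each gene and array and no fold limit. Genes that move together by pool, as many chains did here, were not simulated, so that test does not cover them. Named chains are those called in either sex, those of types I, III, IV, V and VI, and the extremes of each class, and up to 4 called genes per partner list are named. Other chains and genes were named after their values were seen: Col8a2, Col15a1, Col17a1, Col26a1, Serpinh1, P4ha1, Tll1, Mmp9, Tagln, Mustn1, Hhip, Synpo2, Ddr1, Ddr2 and Scgb3a2. The members and all lists were chosen with earlier results of these data known. Promoter windows are from RefSeq (GRCm38.p6). Alternatives changed the replicate block, the samples fitted, variance model, array weights, normalisation, filter, cluster choice, thresholds, pool-makeup covariates and single arrays. 3 of them, a skeletal muscle covariate, a second estimate of the array weights and a replicate block with each sex fitted alone, were added after the data were seen. Deviations of same-numbered room air and hyperoxia arrays from their group means correlated above 0.1 in 3 of 3 pairs in females (r from 0.283 to 0.698). In males they did so in 2 of 3 (-0.169 to 0.330). Female room air replicate 3 correlated more with female hyperoxia replicate 1 (r = 0.582) than with its own number (0.465). These values do not settle whether the numbers pair arrays. The main fit held no block, and blocks were run only as alternatives.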

Additional observations from a re-analysis of the deposited data

How the results depend on the processing

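The 5 chains called in both sexes kept their direction under all 31 alternatives. Of their 310 values, 297 stayed called and 13 did not, 10 of these at a fold threshold of 2, which left 0 chains higher in females and 0 in males, and 3 for Col18a1 in females (a limma test against a fold of 1.2, adjusted p = 0.189, and the 2 losses given in the report). Alternatives that changed only a threshold, the variance model or the replicate block left the differences as they were. They therefore could not change a direction. The same holds in each sex for leaving out an array of the other sex. With no fold threshold, which cannot end a call, 3 chains were lower in females, 8 were higher and 1 lower in males. With array weights 1 chain was lower in females (Col17a1, -0.58, adjusted p = 0.00844), but that estimate of the weights did not converge and left male room air replicate 3 a weight of 1.8e-08. With a gene by gene estimate, added after the data were seen, 0 were lower. Leaving out each array in turn gave 4 to 5 chains higher in females, 5 in males, and 0 lower, 0 in the interaction and 0 between the sexes in either treatment. The class medians then ran from -0.1141 to 0.0957 (females) and from -0.1069 to 0.1405 (males) for fibrillar chains, from -0.1247 to -0.0348 and from 0.0067 to 0.0667 for basement membrane chains, and from -0.1763 to 0.0614 and from -0.0953 to 0.1574 for other chains, so the fibrillar and other medians have no settled sign. Of 961 values of named partner genes called as reported, 893 stayed called and 68 did not. Of these, 19 were lost at a fold threshold of 2, and 19 values of Plod2, 19 of Ogn, 10 of Tll1 and 8 of Prelp were lost in all. Centring arrays on their medians ended the calls of Plod2 in males (-0.48) and of Prelp, Ogn (-0.46 each) and Tll1 (-0.47) in females. Without the 3 arrays highest in squamous genes Plod2, Ogn and Tll1 lost their female calls (adjusted p = 0.213, 0.214 and 0.116), as did Ogn with each sex fitted alone (adjusted p = 0.0727). The array weights ended 7 partner calls, Pcolce2 in females (-0.46) among them, and the gene by gene weights 4. The labels do not say what a replicate number marks. Over all groups 6 of 18 same-numbered pairs correlated above 0.1 (r from -0.708 to 0.698), and 3 of 12 arrays correlated best with their own number. A replicate block left 5 chains higher and 0 lower in each sex, and so did the block with each sex fitted alone, which ended 2 of the partner calls, Plod2 and Ogn in males, and no other call of a named gene that was called. With 3 pools a group and no detection calls, differences of chains near background are poorly bounded.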
